A study of Mus musculus with 12 samples.

Results

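The 42 genes described here encode proteins that make ribosomes: they modify the ribosomal RNA precursor, cut it and fold it, and assemble it with ribosomal proteins in the nucleolus. They were taken from a list of gene names of that pathway, and 41 of them were measured among the 16549 genes of the arrays. Gnl3 was not analysed here. By role, 4 belong to the box C/D particles that methylate ribosomal RNA (Nop56, Nop58, Fbl, Rrp9), and 4 to the box H/ACA particles that convert uridine to pseudouridine (Dkc1, Nhp2, Nop10, Gar1). Another 4 encode abundant nucleolar proteins or a chaperone of these particles (Ncl, Npm1, Nolc1, Ddx21). The small-subunit processome, the first large assembly on the precursor, is represented by 9 (Wdr43, Wdr75, Utp15, Utp18, Utp20, Nop14, Noc4l, Rcl1, Ddx10), and later steps of the 40S subunit by 5 (Pno1, Nob1, Bysl, Ltv1, Rrp12). The other 15 measured genes act in the assembly of the 60S subunit (Pes1, Bop1, Wdr12, Ppan, Rrs1, Nop2, Nop16, Wdr74, Noc2l, Noc3l, Gnl2, Nip7, Mrto4, Ddx18, Rrp1b).

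RNA was measured in 2 mouse liver cell lines, with 2 arrays in each of 6 groups, and the series design describes the arrays of a group as biological replicates. Hepa 1-6, a hepatoma line, and AML12, a hepatocyte line from mice with a TGF-alpha transgene, were each given 10 µg/mL of actinomycin D for 8 h, or 200 ng/mL of ovine pituitary prolactin for 8 h, or neither. All groups, controls included, had been kept overnight without serum and additives, and before that AML12 medium alone held dexamethasone and insulin. The labels give hepatoma as the source of both lines, and each line stands for 1 culture system, so a difference between them is one between these lines. Each sample was labelled with Cy5 and hybridised against Cy3-labelled RNA pooled from 11 mouse cell lines, so every value is a log2 ratio of sample to this common reference, and levels of different genes cannot be set against each other. Ratios were taken on the authors' normalization of each array, so a loss shared by all RNAs of a sample was not measured.

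Ribosome production starts with RNA polymerase I, which transcribes the ribosomal RNA precursor in the nucleolus, and factors of the kind listed above then act in sequence on it. Their messenger RNAs are made by RNA polymerase II and are known as a group that grows with cell proliferation and with MYC, a transcription factor that binds E-boxes. Actinomycin D binds DNA and blocks transcription. It is best known in this pathway for its strong effect on RNA polymerase I at low doses, while higher doses stop RNA polymerase II as well. Prolactin is a pituitary hormone whose receptor signals through JAK2 and STAT5.

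Between 37397 and 40281 of 45018 features per array held a ratio, and replicate arrays correlated at 0.975 to 0.985 across genes. Of 9 measured hepatocyte markers 8 lay above the reference in all 6 groups, among them albumin (Alb), Apob, Hnf4a and Foxa2. Among 10 measured markers of other liver cells, those of leukocytes (Ptprc), macrophages (Adgre1) and fibroblasts (Col1a1) lay far below it, at group means of -8.16 to -4.13. Not all 10 did: Krt19 lay at 4.07 in AML12 controls, and levels of the remaining ones are not given here. Of the 9 hepatocyte markers 2 were higher (Afp and Apoe) and 3 lower (Apob, Apoa1 and Trf) in Hepa 1-6 controls than in AML12 controls, with differences of -3.29 for Apob, -2.93 for Apoa1 and -1.31 for Trf. Afp, a fetal liver gene, lay at 5.61 in Hepa 1-6 controls and -0.22 in AML12 controls. Of 10 markers of other liver cells 3 were higher and 3 lower in Hepa 1-6 controls, the largest difference being that of Krt19, a bile duct keratin, at -4.15 in Hepa 1-6 controls and 4.07 in AML12 controls. The part of these marker differences in the results on ribosome biogenesis genes was not tested. In bulk RNA of this kind, fewer cells with a transcript and less of it per cell cannot be told apart. Changes are log2 differences with the standard error (SE) from limma, and a gene is said to have risen or fallen only where the p-value adjusted over all 16549 genes was under 0.05.

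Start-site sequence was available from RefSeq (GRCm38.p6) for 36 of the 42 genes, as 40 windows of 300 bases, 250 of them before the start. An E-box with the letters CACGTG, which read the same on both strands, occurred in 7 of the 40 windows (17.5%), against 7.15% of all 32851 windows in that table. Each lay in the window of a different gene, and all 7 genes were measured. They are shown because 4 of them are among the genes described below whose response to actinomycin D differed between the lines. Capitals mark the E-box, and up to 12 bases on each side are given. It began at -60 in Nop2 and -20 in Utp18, counted from the start site, and at 3 in Pes1, 18 in Wdr43, 29 in Ltv1 and 38 in Utp20 and Pno1, inside the transcript.
Wdr43 (chr17:71616220-71616249, plus strand): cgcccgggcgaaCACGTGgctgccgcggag
Utp18 (chr11:93885769-93885798, minus strand): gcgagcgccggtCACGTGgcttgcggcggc
Utp20 (chr10:88826765-88826789, minus strand): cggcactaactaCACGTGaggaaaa
Pno1 (chr11:17211540-17211564, minus strand): tgtacaaccacgCACGTGttcctct
Ltv1 (chr10:13193092-13193121, minus strand): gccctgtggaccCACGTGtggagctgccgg
Pes1 (chr11:3963965-3963994, plus strand): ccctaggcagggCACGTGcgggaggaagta
Nop2 (chr6:125131811-125131840, plus strand): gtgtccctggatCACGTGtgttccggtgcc

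Ppan and Nop56 had the 2 largest falls under actinomycin D in both lines, and the 250 bases before their start sites are shown for that reason. Neither holds the E-box. A second motif searched on both strands, that of NRF1, was present in 17.5% of the 40 windows and in 4.6% of all windows, but in neither of these genes. The Kaiso motif, the last one searched, was in none of the 40 and in 0.466% of all windows. These motifs were picked after the expression values had been seen, a match is only a match of letters, and windows of 1 gene can overlap.
Ppan (chr9:20887925-20888174, plus strand): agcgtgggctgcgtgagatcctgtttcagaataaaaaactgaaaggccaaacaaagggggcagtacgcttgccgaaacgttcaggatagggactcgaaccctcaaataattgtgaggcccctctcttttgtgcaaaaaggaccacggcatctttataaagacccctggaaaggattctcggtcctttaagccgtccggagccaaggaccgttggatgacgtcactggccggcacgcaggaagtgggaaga
Nop56 (chr2:130274162-130274411, plus strand): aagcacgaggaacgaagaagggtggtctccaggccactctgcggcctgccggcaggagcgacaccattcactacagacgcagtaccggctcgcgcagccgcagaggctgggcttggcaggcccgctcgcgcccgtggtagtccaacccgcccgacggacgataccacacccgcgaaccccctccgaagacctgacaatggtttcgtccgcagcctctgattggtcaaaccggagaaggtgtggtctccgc

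The first comparison was between the lines without treatment, and ribosome biogenesis genes were mostly higher in Hepa 1-6. Of the 41 genes, 35 were higher in Hepa 1-6 controls than in AML12 controls and 1 was lower, while 32.1% of all genes were called higher and 29.8% lower. At least 2-fold higher were 20, or 48.8%, against 11.6% of all genes. The median difference was 0.95 over the 41 genes and 0.038 over all genes. Both Hepa 1-6 arrays lay above both AML12 arrays for 37 of the 41 genes and below them for 2. Over all genes this held for 42.7% and 38.3%, so groups without overlap were common. The nucleolar proteins, most 60S factors and most of the box H/ACA particle were at least 2-fold higher, while later 40S factors were mixed.

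Nob1, the endonuclease that makes the final cut at the 3′ end of 18S ribosomal RNA, showed the largest difference. Its log2 ratios were 1.35 and 1.39 in Hepa 1-6 controls, against -0.28 and -0.21 in AML12 controls. The groups lay far apart for their spread, and the difference was 1.61 ± 0.059 (SE; adjusted p = 1.2e-07), or 3.06-fold. Pno1, which partners Nob1 on the 40S precursor, went the other way. It had 0.34 and 0.52 in Hepa 1-6 controls and 0.69 and 0.84 in AML12 controls. Both Hepa 1-6 arrays were below both AML12 arrays, and the difference of -0.34 ± 0.096 (SE; adjusted p = 0.015) made it the only one of the 41 that was called lower in Hepa 1-6. Bysl, a 40S assembly factor, was higher in Hepa 1-6 by 0.88 and Ltv1 by 0.40, whereas Rrp12 differed by 0.022 (adjusted p = 0.91) and its 2 groups overlapped.

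In the box H/ACA particle, 3 of 4 genes were more than 2-fold higher in Hepa 1-6, where 11.6% of all genes were at least 2-fold higher. Gar1, a core subunit, had log2 ratios of 0.38 and 0.48 in Hepa 1-6 controls, against -0.96 and -0.95 in AML12 controls. No AML12 array came near the Hepa 1-6 values, and the difference was 1.38 ± 0.087 (SE; adjusted p = 2.4e-06). For Nhp2, another core subunit, the ratios were 1.37 and 1.32 in Hepa 1-6 and -0.06 and 0.069 in AML12. This gave 1.34 ± 0.088 (SE; adjusted p = 3.2e-06), again with no overlap. Dkc1, the pseudouridine synthase dyskerin, was higher by 1.08 (adjusted p = 8.3e-05). Nop10, the smallest subunit, differed by only 0.065 (adjusted p = 0.68), and its groups overlapped. In the box C/D particle Rrp9, the protein specific to U3, was higher by 0.95, Nop56 by 0.87 and the methyltransferase fibrillarin (Fbl) by 0.28. Nop58 differed by 0.25 (adjusted p = 0.055) and was not called. Both its Hepa 1-6 arrays were above both AML12 arrays, which held for 42.7% of all genes.

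All 4 of the nucleolar group were higher in Hepa 1-6 by similar amounts: nucleolin (Ncl) by 1.16, nucleophosmin (Npm1) by 1.07, Nolc1 by 1.20 and the RNA helicase Ddx21 by 1.18, with adjusted p-values of 1e-05 or less. Of 9 processome genes 8 were higher, against 32.1% of all genes. They ran from Utp18 at 0.42 (adjusted p = 0.026) to Wdr43 at 1.20 (adjusted p = 3.5e-07), both subunits of early subcomplexes. Between them lay Wdr75 at 1.03, Rcl1 at 0.95, Utp15 at 0.92, Noc4l at 0.79, Utp20 at 0.59 and Nop14 at 0.57. Ddx10, a helicase, was not called at -0.10 (adjusted p = 0.27). Both its Hepa 1-6 arrays were below both AML12 arrays, which held for 38.3% of all genes.

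For 60S assembly 14 of 15 genes were higher in Hepa 1-6, and 10 of them at least 2-fold, against 32.1% and 11.6% of all genes. Rrs1, which helps bring the 5S particle into the 60S precursor, had 1.53 and 1.50 in Hepa 1-6 controls and 0.18 and 0.27 in AML12 controls. The gap was wide against the spread, at 1.29 ± 0.083 (SE; adjusted p = 2.8e-06). Ddx18, an RNA helicase, had 1.35 and 1.44 in Hepa 1-6, against 0.13 and 0.11 in AML12. Its difference was 1.28 ± 0.071 (SE; adjusted p = 1.2e-06), with no overlap. Nop2, a cytosine methyltransferase of the large ribosomal RNA, had 1.76 and 1.75 in Hepa 1-6 and 0.44 and 0.55 in AML12. Its 2 Hepa 1-6 values were nearly equal, and the difference was 1.26 ± 0.086 (SE; adjusted p = 4.2e-06). Within the PeBoW complex, whose 3 subunits act together, the mean differences were 1.14 for Pes1, 0.73 for Wdr12 and 0.28 for Bop1. Features of the same gene were as far apart, from 0.76 to 1.51 for Pes1 and from 0.33 to 0.94 for Wdr12. Gnl2, Noc2l, Rrp1b, Nip7, Mrto4 and Nop16 were each more than 2-fold higher by the mean of their features, from 1.06 for Nop16 to 1.24 for Rrp1b. Single features did not all reach 2-fold: the 4 of Rrp1b ran from 0.20 to 1.97, and the 2 of Nop16 gave 0.82 and 1.30. Noc3l and Wdr74 were higher by 0.76 and 0.35. Ppan did not differ beyond the threshold, at 0.11 (adjusted p = 0.29).

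**Figure D1:**
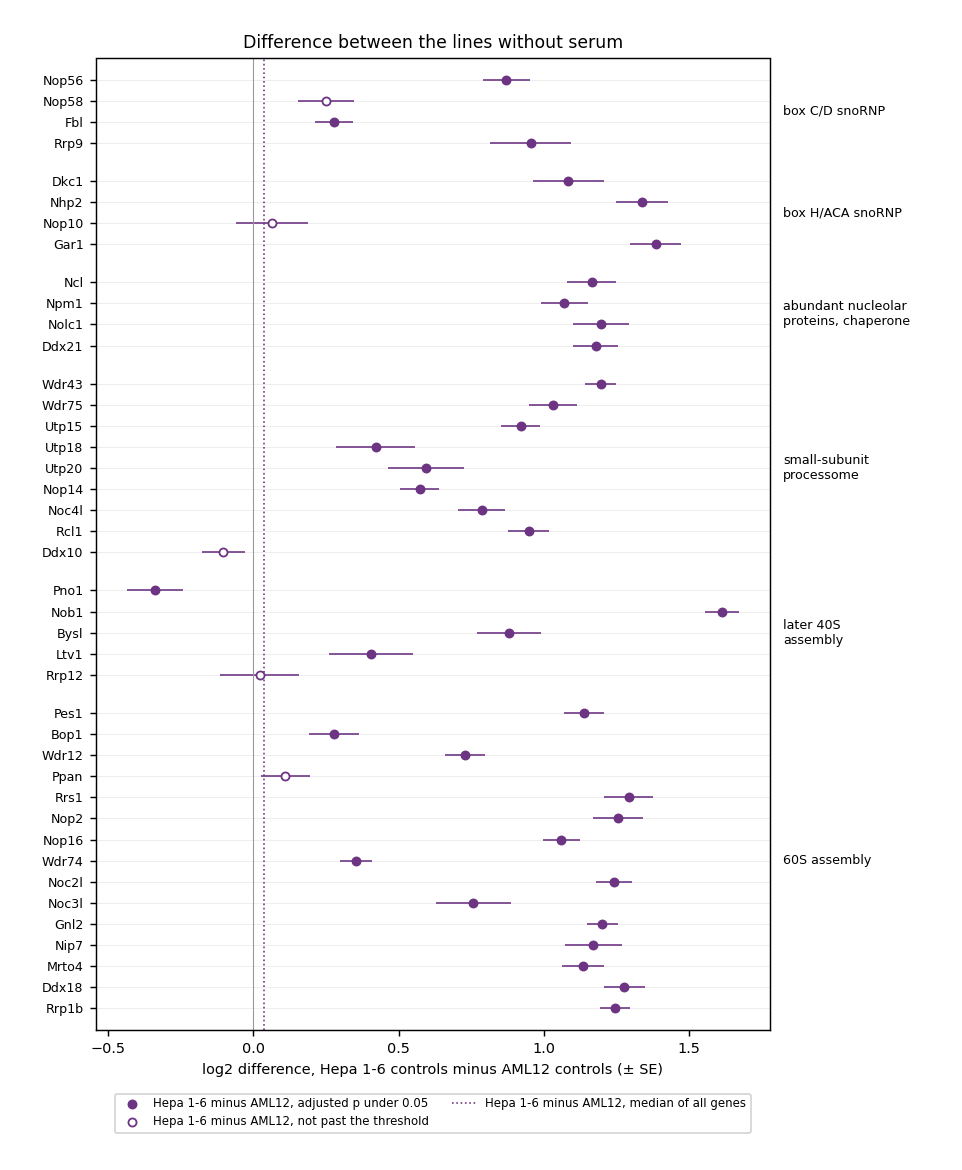
Difference between Hepa 1-6 and AML12 controls in log2 units (x axis) for each of the 41 ribosome biogenesis genes, grouped by role, with bars of 1 SE from limma and filled points where the adjusted p was under 0.05. Points lie right of 0 for 39 genes, from 0.022 for Rrp12 to 1.61 for Nob1, and left of it for Pno1 and Ddx10.

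Calls of 4 of these genes rested on single arrays. Ltv1 lost its call without Hepa 1-6 actinomycin D 1, Hepa 1-6 actinomycin D 2, Hepa 1-6 prolactin 1, Hepa 1-6 prolactin 2, Hepa 1-6 control 2, AML12 control 1 or AML12 control 2 (adjusted p = 0.052 to 0.19). Utp18 lost its call without Hepa 1-6 control 1, Hepa 1-6 control 2, AML12 control 1 or AML12 control 2 (adjusted p = 0.067 to 0.1). Bop1 lost its call without Hepa 1-6 control 1, AML12 control 1 or AML12 control 2 (adjusted p = 0.055 to 0.12). Pno1 lost its call without Hepa 1-6 control 1 or AML12 control 2 (adjusted p = 0.097 to 0.1), at a difference of -0.26 and -0.24.

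Most of the genes fell with actinomycin D in both lines. In Hepa 1-6, 28 of the 41 fell and 2 rose against untreated Hepa 1-6, while 23% of all genes fell and 27.9% rose. In AML12, 34 fell and 2 rose, while 25.5% of all genes fell and 28% rose. The median change of the 41 genes was -0.38 in Hepa 1-6 and -0.56 in AML12, against 0.071 and 0.043 over all genes in these lines. After quantile normalization between arrays the AML12 median was -0.34 and 28 genes fell there. The Hepa 1-6 median was then -0.42 with 29 falls, so which line fell more by the median depended on normalization. Most falls were modest: 4 genes in Hepa 1-6 (9.76%) and 7 in AML12 (17.1%) fell at least 2-fold, against 4.59% and 7.48% of all genes. In Hepa 1-6 both treated arrays lay below both controls for 33 genes and above for 3, against 33.2% and 42.8% of all genes. In AML12 the counts were 36 and 2, against 35.9% and 41.2%.

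**Figure D2:**
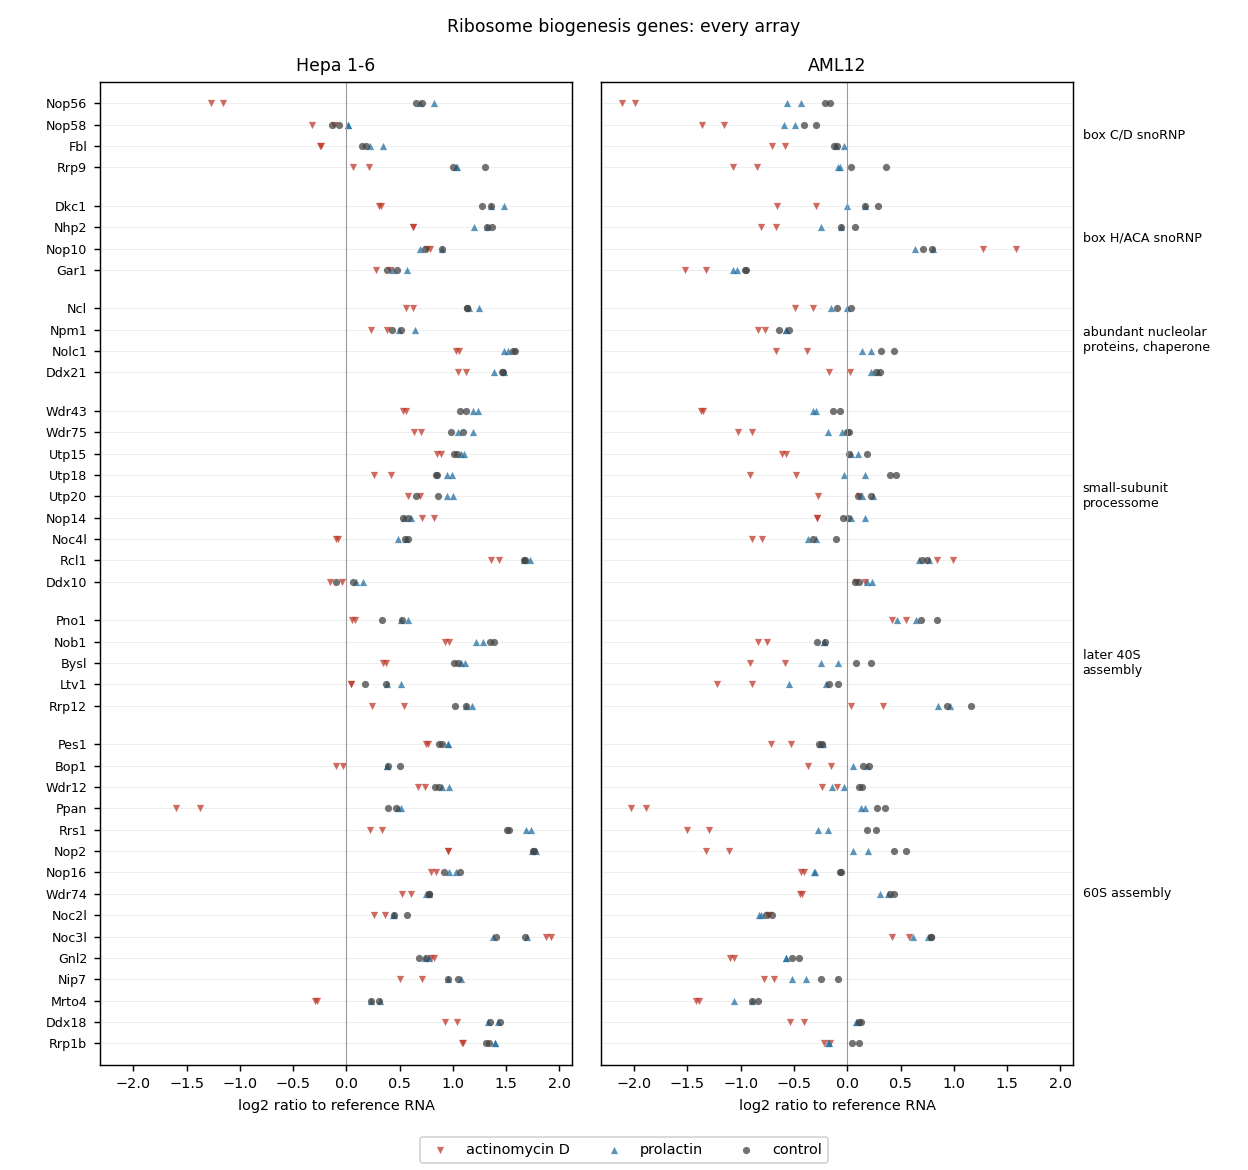
Log2 ratio to the reference RNA (x axis) of each ribosome biogenesis gene on every array, in Hepa 1-6 and AML12, grouped by role. Downward triangles are actinomycin D, upward triangles prolactin and circles controls, 2 arrays each. The actinomycin D points of Nop56, Ppan and Rrs1 stand far to the left of the same genes' other points in both lines, and those of Nop10 stand to their right in AML12.

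The deepest fall in each line was that of a 60S assembly gene. This was Ppan, a factor of the early 60S precursor. It had log2 ratios of -1.38 and -1.60 in actinomycin D-treated Hepa 1-6, against 0.40 and 0.47 in controls. In AML12 it had -2.03 and -1.89 with actinomycin D and 0.36 and 0.28 without. In both lines the treated arrays lay far below the controls. The changes were -1.92 ± 0.084 (SE; adjusted p = 3.4e-06) in Hepa 1-6 and -2.28 ± 0.084 (SE; adjusted p = 6.2e-07) in AML12, or 3.78-fold and 4.85-fold lower. Rrs1 had 0.22 and 0.34 in treated Hepa 1-6 and 1.53 and 1.50 in controls, and -1.50 and -1.30 in treated AML12 against 0.18 and 0.27 in controls. It fell by 1.24 in Hepa 1-6 and by 1.63 in AML12, clear of the spread in each.

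Nop2 had 0.95 and 0.95 in treated Hepa 1-6 and 1.76 and 1.75 in controls. Its AML12 values were -1.33 and -1.11 with actinomycin D and 0.44 and 0.55 without. It fell in both, with changes of -0.80 ± 0.086 (SE; adjusted p = 0.00016) in Hepa 1-6 and -1.71 ± 0.086 (SE; adjusted p = 2.6e-06) in AML12. Noc3l was the 1 gene of this role that rose: it had 1.88 and 1.92 in treated Hepa 1-6, against 1.41 and 1.68 in controls. The treated arrays were above the controls, but the controls lay well apart from each other, and the change was 0.36 ± 0.13 (SE; adjusted p = 0.0499). In AML12 it was 0.42 and 0.58 with actinomycin D and 0.78 and 0.79 without, a change of -0.28 (adjusted p = 0.099). Mrto4, a stalk assembly factor, fell by 0.55 in Hepa 1-6 and 0.54 in AML12, Bop1 by 0.52 and 0.44, and Ddx18 by 0.41 and 0.59. The falls of Nip7 were -0.39 in Hepa 1-6 and -0.56 in AML12, and those of Nop16 -0.18 and -0.35. Pes1, Wdr12 and Gnl2 were not called in Hepa 1-6, at -0.13, -0.15 and 0.096. All 3 fell in AML12, by 0.37, 0.29 and 0.59. Noc2l fell only slightly in Hepa 1-6, by 0.20 (adjusted p = 0.029), and changed by -0.005 in AML12, where the groups overlapped.

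All 4 box C/D genes fell in AML12 (25.5% of all genes) and 3 of 4 in Hepa 1-6 (23% of all genes). Nop56, a core scaffold protein of the particle, had -1.16 and -1.27 in treated Hepa 1-6, against 0.65 and 0.71 in controls. Its AML12 ratios were -2.11 and -1.99 with actinomycin D and -0.21 and -0.17 without. The changes were -1.90 ± 0.08 (SE; adjusted p = 2.8e-06) in Hepa 1-6 and -1.86 ± 0.08 (SE; adjusted p = 1.2e-06) in AML12. The 2 features averaged for Nop56 fell unequally, with changes of -3.31 and -0.48 in Hepa 1-6 and -2.59 and -1.13 in AML12. Nop58, its partner in the particle, had -0.33 and -0.12 in treated Hepa 1-6 and -0.13 and -0.07 in controls, and these overlapped. In AML12 it had -1.36 and -1.15 with actinomycin D, against -0.41 and -0.30 without. It was not called in Hepa 1-6, at -0.12 (adjusted p = 0.35), and fell in AML12, with -0.91 ± 0.098 (SE; adjusted p = 0.00013). Rrp9 fell by 1.01 in Hepa 1-6 and 1.16 in AML12, and Fbl by 0.41 and 0.54.

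In the box H/ACA particle the subunits went different ways. Dkc1 had 0.31 and 0.32 in treated Hepa 1-6 and 1.36 and 1.27 in controls. Its change of -0.998 ± 0.12 (SE; adjusted p = 0.00031) was the deepest fall of the particle there. Nhp2 had -0.81 and -0.67 in treated AML12, against -0.06 and 0.069 in controls. With -0.74 ± 0.088 (SE; adjusted p = 0.00021) it fell most in AML12, and it fell by 0.72 in Hepa 1-6. Nop10 rose in AML12: the treated arrays had 1.27 and 1.58, against 0.80 and 0.71 in controls. The treated arrays were above both controls, with a change of 0.67 ± 0.12 (SE; adjusted p = 0.0022), the largest rise of the 41 genes in either line. In Hepa 1-6 it had 0.75 and 0.79 with actinomycin D and 0.74 and 0.90 without, which overlapped. Gar1 fell in AML12 by 0.47 (adjusted p = 0.0023) and changed by -0.084 (adjusted p = 0.45) in Hepa 1-6.

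Of the 4 nucleolar genes 3 fell in both lines, as did 15.2% of all genes. Ncl had 0.56 and 0.62 in treated Hepa 1-6, against 1.13 and 1.13 in controls. This was a fall of 0.54 ± 0.085, and in AML12 it fell by 0.37. Nolc1, a chaperone of both particle types, had -0.67 and -0.38 in treated AML12 and 0.31 and 0.44 in controls. It fell there by 0.90 ± 0.096 and in Hepa 1-6 by 0.53. Ddx21 fell by 0.38 in Hepa 1-6 and 0.36 in AML12. Npm1 was called in neither line, at -0.16 (adjusted p = 0.12) in Hepa 1-6 and -0.21 (adjusted p = 0.058) in AML12. All its treated arrays were below all controls of their line. That held for 33.2% of all genes in Hepa 1-6 and 35.9% in AML12.

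The processome genes were divided. In Hepa 1-6, 5 of 9 fell and 1 rose, against 23% and 27.9% of all genes. In AML12, 6 fell and 1 rose, against 25.5% and 28%. Noc4l, whose yeast counterpart binds that of Nop14, had -0.074 and -0.10 in treated Hepa 1-6, against 0.58 and 0.55 in controls. Its change of -0.66 ± 0.08 (SE; adjusted p = 0.00031) was the deepest fall of the role in that line, and it fell by 0.63 in AML12. Nop14 itself had 0.82 and 0.71 in treated Hepa 1-6 and 0.58 and 0.53 in controls. It rose there by 0.21 ± 0.068 (SE; adjusted p = 0.034). In AML12 it had -0.28 and -0.29 with actinomycin D and -0.036 and 0.0035 without, and fell, with -0.27 ± 0.068 (SE; adjusted p = 0.011).

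Wdr43, a subunit of the first subcomplex to bind the precursor, had -1.37 and -1.35 in treated AML12, against -0.14 and -0.068 in controls. In Hepa 1-6 it had 0.53 and 0.56 with actinomycin D and 1.07 and 1.12 without. Neither line showed overlap, and the changes were -1.26 ± 0.053 (SE; adjusted p = 1.2e-06) in AML12 and -0.55 ± 0.053 (SE; adjusted p = 9.6e-05) in Hepa 1-6. Rcl1, a processome protein related to RNA cyclases, had 1.44 and 1.36 in treated Hepa 1-6 and 1.68 and 1.67 in controls, a change of -0.27 ± 0.07 (SE; adjusted p = 0.012). In AML12 it had 0.84 and 0.997 with actinomycin D and 0.70 and 0.75 without, a change of 0.19 ± 0.07 (SE; adjusted p = 0.047). It thus fell in one line and rose in the other, as Nop14 did the opposite way round. Wdr75 fell by 0.37 in Hepa 1-6 and 0.97 in AML12, and Utp18 by 0.51 and 1.12. Utp15 was called in AML12 alone, at -0.69 (adjusted p = 7e-05), with -0.16 (adjusted p = 0.086) in Hepa 1-6. Utp20 was called in neither line, at -0.12 (adjusted p = 0.49) in Hepa 1-6 and -0.24 (adjusted p = 0.15) in AML12, nor was Ddx10, at -0.083 (adjusted p = 0.39) and 0.038 (adjusted p = 0.7).

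Of the later 40S factors all 5 fell in AML12 (25.5% of all genes) and 4 in Hepa 1-6 (23% of all genes). Bysl had 0.37 and 0.34 in treated Hepa 1-6, against 1.05 and 1.01 in controls. It fell by 0.68 ± 0.11 there and by 0.90 in AML12. Ltv1, a factor of 40S export in yeast, had -1.22 and -0.90 in treated AML12 and -0.18 and -0.085 in controls. It fell there, with -0.93 ± 0.14 (SE; adjusted p = 0.00096). In Hepa 1-6 it had 0.043 and 0.043 with actinomycin D and 0.17 and 0.38 without, at -0.23 (adjusted p = 0.22), which was not called. Rrp12, an export factor in yeast, fell by 0.68 in Hepa 1-6 and 0.87 in AML12, Nob1 by 0.42 and 0.55, and Pno1 by 0.36 and 0.28.

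Some of the smaller changes under actinomycin D rested on single arrays. Among the genes that rose, Noc3l lost its call without any 1 array other than Hepa 1-6 prolactin 1, Hepa 1-6 prolactin 2 or Hepa 1-6 control 2 (adjusted p = 0.057 to 0.27) in Hepa 1-6. There, Nop14 lost its call without Hepa 1-6 actinomycin D 1, Hepa 1-6 prolactin 1, Hepa 1-6 prolactin 2, Hepa 1-6 control 1 or Hepa 1-6 control 2 (adjusted p = 0.05 to 0.17). For the rise in AML12, Rcl1 lost its call without any 1 array other than AML12 actinomycin D 1 (adjusted p = 0.051 to 0.25). Among falls in Hepa 1-6, Nop16 lost its call without any 1 array other than Hepa 1-6 control 1 (adjusted p = 0.061 to 0.26). Utp18 lost its call without Hepa 1-6 actinomycin D 1, Hepa 1-6 control 1 or Hepa 1-6 control 2 (adjusted p = 0.055 to 0.083). Wdr74 lost its call without Hepa 1-6 actinomycin D 2, Hepa 1-6 control 1 or Hepa 1-6 control 2 (adjusted p = 0.053 to 0.077). Rcl1 lost its call without Hepa 1-6 actinomycin D 2 or Hepa 1-6 control 1 (adjusted p = 0.055 to 0.065). Noc2l lost its call without Hepa 1-6 actinomycin D 2 or Hepa 1-6 control 1 (adjusted p = 0.14 to 0.17). Pno1 lost its call without Hepa 1-6 actinomycin D 1 or Hepa 1-6 control 2 (adjusted p = 0.062 to 0.09). Nip7 lost its call without Hepa 1-6 actinomycin D 1 or Hepa 1-6 control 2 (adjusted p = 0.063 to 0.069). Among falls in AML12, Pno1 lost its call without Hepa 1-6 actinomycin D 1, Hepa 1-6 actinomycin D 2, Hepa 1-6 prolactin 1, Hepa 1-6 prolactin 2, AML12 actinomycin D 1 or AML12 control 2 (adjusted p = 0.052 to 0.19). Nop14 lost its call without AML12 control 2 (adjusted p = 0.059). Wdr12 lost its call without AML12 actinomycin D 1 (adjusted p = 0.055). Other processing also removed falls. After quantile normalization Gar1, Ncl, Pes1, Nop16, Nop14 and Wdr12 were no longer called in AML12. With only the feature of highest mean ratio per gene, Ncl, Ddx21, Nip7, Nop14 and Wdr12 were not called there. In Hepa 1-6 that setting removed the falls of Bysl, Nop16 and Utp18.

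Set side by side, 26 of the 41 genes (63.4%) fell in both lines and none rose in both, while 15.2% of all genes fell and 16.2% rose in both. Nop14 and Rcl1 were called in opposite directions, as were 3.82% of all genes. In neither line were 3 genes called (Npm1, Utp20, Ddx10), and the remaining 10 were called in 1 line. Of the 10, 7 fell in AML12 alone and 1 in Hepa 1-6 alone, and 1 rose in each line alone. Of all 16549 genes, 5093 were called in neither line. Of the same 16549, 1366 fell and 1673 rose in AML12 alone, and 1009 fell and 1584 rose in Hepa 1-6 alone. Across the 41 genes the changes of the lines correlated at 0.773 (Pearson) and 0.681 (Spearman), and across all genes at 0.559 and 0.544. The genes are not independent replicates, and all arrays share the reference RNA and normalization. The change was the more negative one in AML12 for 29 genes, against 52.9% of all genes, and in Hepa 1-6 for 12 (29.3%, against 47.1%). After quantile normalization the median change was the more negative one in Hepa 1-6, at -0.42 against -0.34 in AML12.

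**Figure D3:**
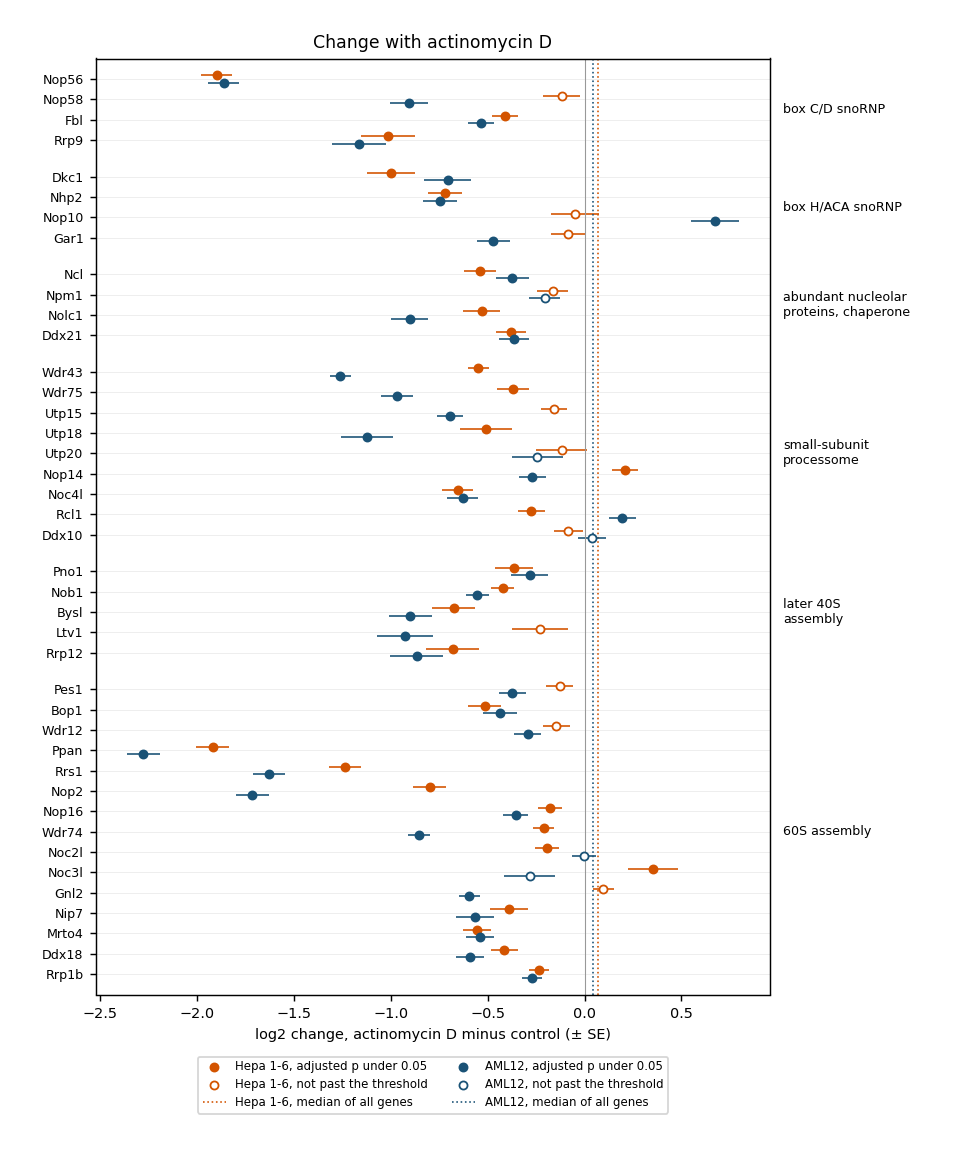
Log2 change with actinomycin D against control (x axis) for the 41 ribosome biogenesis genes by role, Hepa 1-6 above AML12 for each gene, with bars of 1 SE from limma, filled points where the adjusted p was under 0.05 and dotted lines at the median of all genes. Most points lie left of 0, Ppan and Nop56 farthest, and only Nop10, Rcl1, Nop14 and Noc3l have a filled point to the right of it.

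The difference between the lines' responses was then tested itself, as the change in Hepa 1-6 minus that in AML12. It was positive and past the threshold for 13 genes (17.2% of all genes) and negative for 2 (12.8% of all genes). In either direction 30% of all genes passed. The median was 0.17, against 0.033 over all genes. A positive value means a smaller fall, or a rise, in Hepa 1-6. Of the 13 genes 12 had fallen in AML12, as had 34 of all 41, and 6 had fallen in Hepa 1-6, as had 28 of 41. The AML12 change is part of the tested difference, so these counts only describe it. The largest was that of Nop2, at 0.92 ± 0.12 (SE; adjusted p = 0.0013), followed by Nop58 at 0.79 ± 0.14 (SE; adjusted p = 0.0045) and Wdr43 at 0.71 ± 0.076 (SE; adjusted p = 0.0005). Ltv1 followed at 0.70 ± 0.20 (SE; adjusted p = 0.036).

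Gnl2, a GTPase of the nuclear 60S precursor, had 0.79 and 0.83 in treated Hepa 1-6, against 0.68 and 0.74 in controls. It had -1.07 and -1.10 in treated AML12 and -0.52 and -0.46 in AML12 controls. The treated AML12 arrays alone stood apart from their controls by the test, and the difference of the responses was 0.69 ± 0.076 (SE; adjusted p = 0.00058). Wdr74, another 60S factor, had 0.61 and 0.52 in treated Hepa 1-6 and 0.78 and 0.77 in controls. In AML12 it had -0.45 and -0.42 with actinomycin D and 0.40 and 0.44 without. It fell in both lines, by 0.21 in Hepa 1-6 and 0.86 in AML12, and the difference was 0.64 ± 0.079 (SE; adjusted p = 0.00089). Noc3l gave 0.64 (adjusted p = 0.033), Utp18 0.62 (adjusted p = 0.045), Wdr75 0.60 (adjusted p = 0.0071) and Utp15 0.54 (adjusted p = 0.0045). Nop14 gave 0.48 (adjusted p = 0.0082), Gar1 0.39 (adjusted p = 0.047) and Rrs1 0.39 (adjusted p = 0.039). The 2 negative differences were those of Nop10, at -0.72 ± 0.17 (SE; adjusted p = 0.017), and Rcl1, at -0.47 ± 0.099 (SE; adjusted p = 0.01). Ppan, the gene with the deepest falls, did not pass, at 0.36 (adjusted p = 0.055), nor did Nop56, at -0.036 (adjusted p = 0.84). By role, 5 of 9 processome genes and 5 of 15 60S genes had a positive difference, against 17.2% of all genes. None of the nucleolar group was called.

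Without AML12 control 1, AML12 control 2, AML12 actinomycin D 1 or Hepa 1-6 control 1, the count of positive differences was 8 in place of 13. Gar1 lost its call without any 1 array other than AML12 actinomycin D 2 (adjusted p = 0.051 to 0.14). Utp18 lost its call without any 1 array other than AML12 actinomycin D 2 (adjusted p = 0.052 to 0.12). Ltv1 lost its call without any 1 array other than Hepa 1-6 control 2, AML12 actinomycin D 2, AML12 prolactin 1 or AML12 prolactin 2 (adjusted p = 0.052 to 0.11). Rrs1 lost its call without any 1 array other than Hepa 1-6 actinomycin D 1, AML12 actinomycin D 2, AML12 prolactin 1 or AML12 prolactin 2 (adjusted p = 0.061 to 0.12). Noc3l lost its call without Hepa 1-6 actinomycin D 1, Hepa 1-6 actinomycin D 2, Hepa 1-6 control 1, AML12 actinomycin D 1, AML12 control 1 or AML12 control 2 (adjusted p = 0.066 to 0.1). Nop10 lost its call without Hepa 1-6 control 2 or AML12 control 2 (adjusted p = 0.055 to 0.057). With quantile normalization between arrays the counts were 7 positive and 3 negative and the median was 0.014.

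The 7 genes with an E-box, shown above, differed between the lines by a median of 0.615 in their response to actinomycin D, and the 28 with a window but no E-box by 0.147. In AML12 the median change was -0.928 with the E-box and -0.558 without, and in Hepa 1-6 it was -0.364 and -0.374. Among the 7, Nop2, Wdr43, Ltv1 and Utp18 passed the test of the difference and Utp20, Pno1 and Pes1 did not. As given above, Ltv1 and Utp18 lost this call without most single arrays, and the 2 features of Utp18 gave 0.0026 and 1.23. The differences ran from -0.08 to 0.915 with the E-box and from -0.72 to 0.79 without. Changes were not split by the other motifs searched. The groups are small and were formed after the changes were known, so these values are a description.

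With prolactin 1 of the genes passed the test, in AML12. In Hepa 1-6 none of the 41 was called by limma in either direction, while 0.0302% of all genes were called higher and 0.00604% lower. At an unadjusted p under 0.05, 1 gene was higher (Rrs1) and 0 were lower, against 3.8% and 4.41% of all genes. In AML12, 1 gene fell, against 0.55% of all genes, and 0 rose, against 0.719%. At an unadjusted p under 0.05, 10 were lower and 0 higher in AML12, against 9.06% and 7.84% of all genes. That count of 10 was 6 without AML12 control 2 or AML12 prolactin 2. The median change was 0.065 in Hepa 1-6 and -0.11 in AML12, against -0.0042 and -0.026 over all genes.

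The gene that fell was Rrs1. In AML12 it had -0.18 and -0.27 with prolactin, against 0.18 and 0.27 in controls. Both prolactin arrays were below both controls, and the change was -0.45 ± 0.083 (SE; adjusted p = 0.0495), close to the threshold. In Hepa 1-6 it had 1.74 and 1.69 with prolactin and 1.53 and 1.50 in controls. The prolactin arrays were here above the controls, with 0.20 ± 0.083 (SE; adjusted p = 0.6), which was the lowest adjusted p of the 41 genes in that line. The difference between the lines' responses was 0.65 ± 0.12 (SE; adjusted p = 0.11), the nearest to the threshold of the 41. By limma 0 of the 41 passed in either direction, while 0.0544% of all genes had a positive difference and 0.0665% a negative one. At an unadjusted p under 0.05, 10 of the 41 were positive and 0 negative, against 5.47% and 5.46% of all genes. That count was 4 without AML12 control 2 and 5 without Hepa 1-6 control 1, Hepa 1-6 prolactin 2 or AML12 prolactin 2. In AML12 Rrs1 lost its call without any 1 array other than AML12 actinomycin D 1 or AML12 actinomycin D 2 (adjusted p = 0.073 to 0.28).

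The other genes of AML12 that were lower at an unadjusted p under 0.05 were Rrp1b, Nop2, Nop56, Nop16, Wdr43, Wdr12, Nip7, Bysl and Utp18, with changes of -0.20 for Wdr43 to -0.37 for Nop2 and adjusted p-values of 0.064 for Rrp1b to 0.23 for Utp18. None is counted as changed. Over all 41 genes the changes ran from -0.12 for Rrp9 to 0.22 for Utp20 in Hepa 1-6 and from -0.45 for Rrs1 to 0.12 for Ddx10 in AML12. By sign alone, 34 of 41 genes were below 0 in AML12 (82.9%, against 55.9% of all genes) and 29 above 0 in Hepa 1-6, against 48.5% of all genes. Both prolactin arrays were below both controls for 24 genes in AML12 (58.5%, against 27.9% of all genes) and above them for 2, against 20.9%. In Hepa 1-6 they were above for 17 (41.5%, against 21.1% of all genes) and below for 3, against 22.2%. These genes are not independent of each other, and no test of the list was made.

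**Figure D4:**
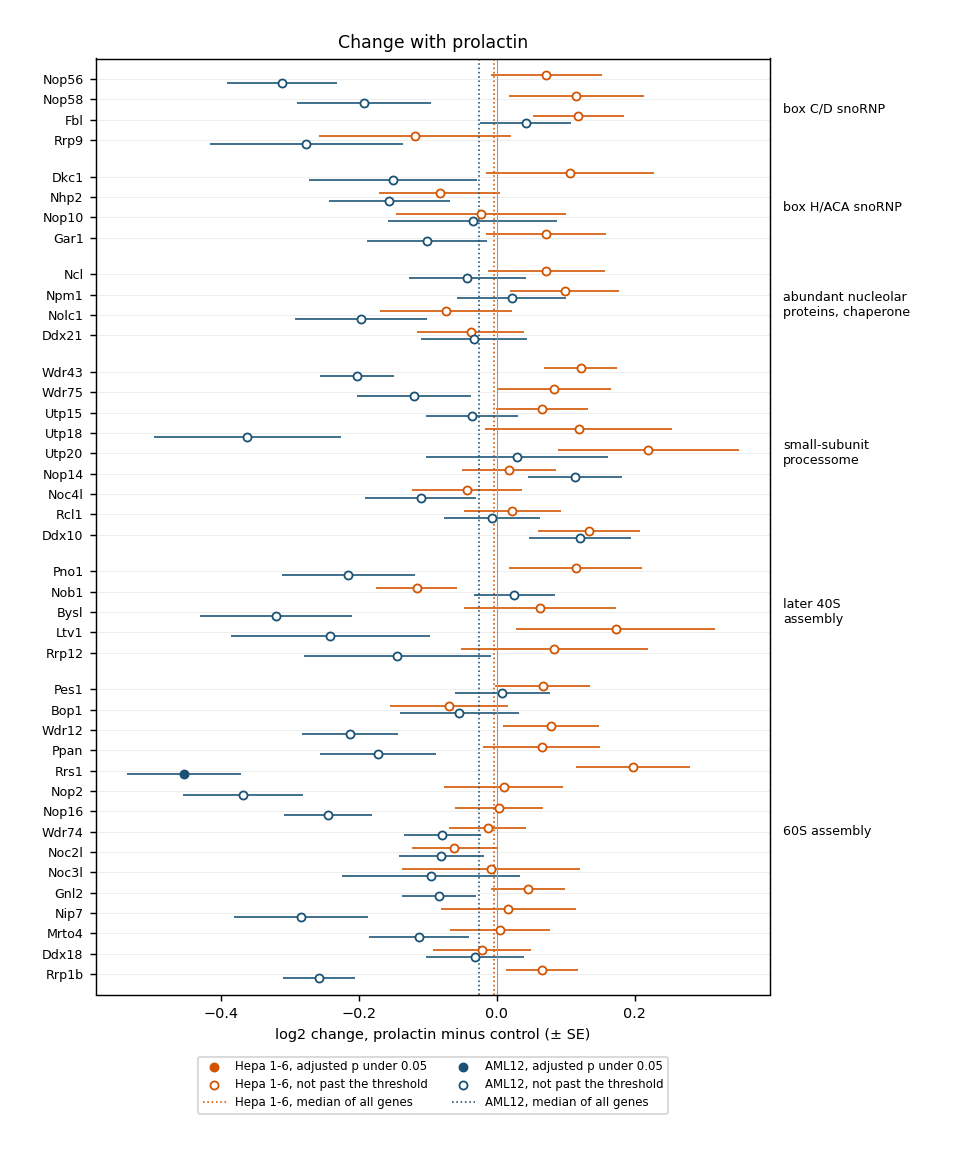
Log2 change with prolactin against control (x axis) for the 41 genes by role, Hepa 1-6 above AML12 for each gene, with bars of 1 SE from limma, filled points where the adjusted p was under 0.05 and dotted lines at the median of all genes. The x axis spans less than 1 log2 unit. The 1 filled point is Rrs1 in AML12, at -0.45, and the Hepa 1-6 points of most genes lie right of the AML12 points.

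The genes of the same pathway outside these 41 were counted in the same way. Of 15 genes for RNA polymerase I and its factors, 12 were higher in Hepa 1-6 than in AML12 controls (80%, against 32.1% of all genes). Lower there were 2 (13.3%, against 29.8%). The largest differences were those of the polymerase subunit Polr1e at 2.00, the initiation factor subunit Taf1b at 1.67 and Polr1d, a subunit shared with RNA polymerase III, at 1.35. With actinomycin D 8 of the 15 fell (53.3%, against 23% of all genes) and 0 rose (against 27.9%) in Hepa 1-6. In AML12, 13 fell (86.7%, against 25.5%) and 1 rose (6.67%, against 28%). The initiation factor subunit Taf1c fell by 1.29 in Hepa 1-6 and 1.41 in AML12, and Taf1a by 1.65 in AML12. The 1 gene that rose was Polr1d, with 0.44 (adjusted p = 0.00013). None was called with prolactin in either line.

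A further 65 assembly factors were counted too. In the control comparison 54 were higher (83.1%, against 32.1% of all genes) and 3 lower (4.62%, against 29.8%) in Hepa 1-6. The median was 0.77. Mdn1, a large ATPase of 60S assembly, differed by 2.29, the methyltransferase Rrp8 by 2.11 and Imp3, a U3 protein, by -0.54. With actinomycin D 35 fell (53.8%, against 23% of all genes) and 4 rose (6.15%, against 27.9%) in Hepa 1-6. In AML12, 52 fell (80%, against 25.5%) and 4 rose (6.15%, against 28%). The medians were -0.24 in Hepa 1-6 and -0.51 in AML12. Mdn1 fell most in Hepa 1-6, with -2.07, and Nol10 most in AML12, with -1.98. Riok2, a kinase of 40S maturation, fell by 1.65 in AML12. With prolactin none was called in Hepa 1-6, and 2 fell in AML12 (3.08%, against 0.55% of all genes). These were Tsr1 with -0.35 (adjusted p = 0.049) and Surf6 with -0.34 (adjusted p = 0.043).

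The nuclear RNA exosome, which trims ribosomal RNA precursors, had 7 of 12 genes higher in Hepa 1-6 controls (58.3%, against 32.1% of all genes). It had 1 lower (8.33%, against 29.8%). With actinomycin D 5 fell in Hepa 1-6 (41.7%, against 23% of all genes) and 7 in AML12 (58.3%, against 25.5%). None rose in either line, against 27.9% and 28% of all genes. Exosc8 fell by 1.19 in AML12 and Exosc4 by 0.69 in Hepa 1-6. Cytosolic ribosomal proteins, the building blocks of the ribosome itself, were called at shares near those of all genes, other than for rises in Hepa 1-6. Of 47 measured, 13 were higher (27.7%, against 32.1% of all genes) and 14 lower (29.8%, against 29.8%) in Hepa 1-6 controls than in AML12 controls. With actinomycin D 11 fell (23.4%, against 23% of all genes) and 20 rose (42.6%, against 27.9%) in Hepa 1-6. In AML12, 12 fell (25.5%, against 25.5%) and 13 rose (27.7%, against 28%). The medians in Hepa 1-6 and AML12 were 0.16 and -0.01. Rpl32 fell by 2.14 in Hepa 1-6 and 1.50 in AML12, whereas Rpl4 rose by 0.63 in Hepa 1-6 and Rpl14 by 0.56 in AML12. None was called with prolactin. Many ribosomal protein genes have near-identical processed copies in the genome, which a probe can also detect, so their values are less certain.

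**Figure D5:**
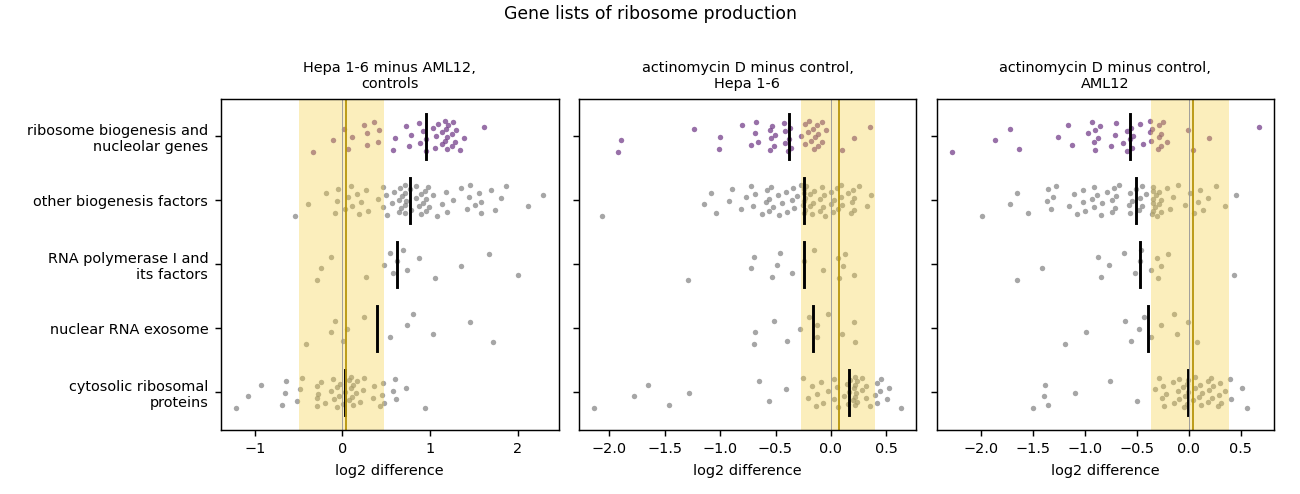
Log2 difference (x axis) of every gene in 5 lists, in the 3 comparisons named above the panels. Each point is a gene, thick bars are list medians, the shaded band spans the 25th to 75th percentile of all genes tested and the line in it is their median. The medians of the ribosome biogenesis and nucleolar genes lie outside the band in all 3 panels, and those of the cytosolic ribosomal proteins lie within it.

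The value of a gene with several features is their mean, and features of 1 gene did not always move together. Of the 41 genes 20 had several. Rrp1b had features called in opposite directions under actinomycin D in each line, from -0.49 to 0.40 in Hepa 1-6 and from -0.60 to 0.34 in AML12, so its mean falls of 0.24 and 0.27 describe no single feature. Utp20 had -0.72 and 0.48 in Hepa 1-6. For Utp18 the features gave -1.69 and -0.55 in AML12, and -0.55 and -0.47 in Hepa 1-6. Nop56 had features with opposite calls for the difference between the lines' responses, at -0.72 and 0.65.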

How the data were processed

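Each of the 12 samples was hybridised to 1 two-colour Agilent array. The authors deposited normalized log10 ratios of sample (Cy5) over reference (Cy3) for 45018 features; per the submitters' processing notes these came from Agilent Feature Extraction, with version and settings not given in the sources used here. No dye was swapped. The notes state no base for the logarithm, and base 10, the convention of that software, was assumed. If it were 2, all log2 values would shrink 3.32-fold and no sign or p-value would change. RNA was extracted with Trizol, per the labels' protocols.

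Exact zeros (12.7% of values) were taken as features with no ratio, since they are far more frequent than values near 0. Features lacking a ratio on any array were dropped, which left 35664. Ratios were converted to log2 without further scaling, and the 28519 remaining features with 1 gene symbol in the platform annotation were averaged by symbol to 16549 genes. Of all features 33653 had 1 symbol, 56 several and 11309 none. The 41 measured ribosome biogenesis genes had 68 features, 1 each for 21 genes and several for 20. No background or saturation marks were used, and the number of arrays limits the precision.

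A linear model with a mean per group was fitted to all genes and arrays at once in limma 3.58.1 (R 4.3.3), with two-sided moderated tests on 6 residual degrees of freedom plus a prior of 1.84. Benjamini-Hochberg adjustment ran across the 16549 genes, and the threshold was 0.05. The 7 contrasts were each treatment against the control of its line, the 2 control groups against each other, and the difference of each treatment's effect between the lines. The script was tested on simulated data. Prolactin and actinomycin D share the controls of a line, so these comparisons are not independent.

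Members and lists were chosen with earlier results of these data known, and no p-value was adjusted over a list alone. All members may be named. Array values are given for the member of each role with the largest called fall or rise under actinomycin D in each line, for up to 6 members per direction in the differences between lines, and for members called or nearest to the threshold with prolactin. Of other lists up to 3 genes per direction and comparison were eligible. Promoter windows were matched to members by symbol. Alternatives were centring or quantile normalization, other feature filters, keeping zeros, 1 feature per gene, leaving out low ratios, a robust prior, a replicate block, fits within a line, and leaving out each array. Plots were drawn in matplotlib 3.10.9 under Python 3.11.15.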

Additional observations from a re-analysis of the deposited data

Results flagged for a closer look

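The response to actinomycin D differed between the lines for 15 of the 41 genes, by limma's test of the difference itself (change in Hepa 1-6 minus change in AML12, adjusted p under 0.05 over all genes). It was positive for 13: Nop2 (0.92), Nop58 (0.79), Wdr43 (0.71), Ltv1 (0.70), Gnl2 (0.69), Wdr74 (0.64), Noc3l (0.64), Utp18 (0.62), Wdr75 (0.60), Utp15 (0.54), Nop14 (0.48), Gar1 (0.39) and Rrs1 (0.39). It was negative for Nop10 (-0.72) and Rcl1 (-0.47). The direction of change itself was opposite, with calls in both lines, for Nop14 and Rcl1. The rise of each, Nop14 in Hepa 1-6 and Rcl1 in AML12, lost its call without several single arrays, as given above. The 2 features of Nop14 gave 0.073 and 0.34 in Hepa 1-6. Over all genes 30% passed this test. Groups of 2 arrays were too small for the search for single outlying samples.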

How the results depend on the processing

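The 287 single-gene results (41 genes in 7 comparisons) were recomputed under 21 alternatives, which gave 5945 values. Of these 5724 kept their direction where called and their side of the threshold, 199 lost a call, 20 gained one and 2 reversed. Noc2l in AML12 with actinomycin D was 0.30 after quantile normalization, against -0.005, and the Nop56 response difference was 0.65 with the feature of highest mean ratio, against -0.036. For Nop56 the 2 features themselves differ. The cause for Noc2l was not tested.

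For actinomycin D in AML12 the median was -0.47 with centred arrays and -0.34 after quantile normalization, against -0.56, with 31 and 28 falls against 34, and 1 gene rose in place of 2 with the looser feature filter (a ratio on at least 1 array of every group) or with only the arrays of the line. In Hepa 1-6 no gene rose after quantile normalization or with only that line's arrays (0), and 1 with the looser filter, 1 feature per gene, zeros kept or a robust prior. For the response difference quantile normalization gave 7 positive calls and a median of 0.014. With prolactin in AML12, 0 genes fell with centred arrays, the looser filter, 1 feature per gene, a robust prior or only that line's arrays. In the fit of only that line's arrays 0 of all 16549 genes were called. After quantile normalization 2 fell (Rrs1 and Rrp1b), and with zeros kept 1 fell, Rrp1b and not Rrs1. In the comparison of controls 0 genes were lower in Hepa 1-6 when only controls were fitted. Causes were not tested. Response differences between lines cannot be had from 1 line's arrays, and background correction and slide effects could not be varied from ratios.

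Leaving out each array in turn gave, for actinomycin D, 1 to 2 rises, 32 to 34 falls and medians of -0.60 to -0.52 in AML12, and 0 to 1 rises, 23 to 27 falls and medians of -0.43 to -0.34 in Hepa 1-6. The response difference had 8 to 15 positive and 1 to 3 negative calls and medians of 0.087 to 0.22. Controls gave 32 to 36 higher and 0 to 1 lower in Hepa 1-6, with medians of 0.94 to 1.04. Prolactin gave 0 to 1 falls in AML12 with medians of -0.16 to -0.071, and 0 calls in Hepa 1-6 with medians of 0.024 to 0.076.

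Same-numbered arrays of a line shared little deviation (correlations of 0.0085 to 0.159), so the numbers were not taken to pair samples. With the replicate block 0 genes fell with prolactin in AML12, and the response difference to actinomycin D had 9 positive and 2 negative calls against 13 and 2. The comparison of controls had 33 higher and 1 lower. This block has a term per line and sets the line difference at replicate 1, so the median there was 0.999 in place of 0.954. The other counts at an adjusted p under 0.05 were equal, though in AML12 with actinomycin D Npm1 gained a call and Pno1 lost one. At an unadjusted p under 0.05 the prolactin response difference had 8 positive genes in place of 10.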
